A study of Mus musculus with 2 samples.

Results

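Smooth-muscle-type contractile genes were described across the cell classes of cultured mouse epidermis in 2 single-cell RNA libraries. The group holds 10 genes of the 36528 gene IDs in the count tables, chosen by name: Acta2, Actg2, Cnn1, Tagln, Myl9, Tpm1, Tpm2, Cald1, Fhl1 and Ankrd1. All 10 were measured in both libraries and passed the minimum of 20 UMIs over both libraries in the keratin-rich cells. The list was drawn up with results of these same data known, so its levels and differences are a description.

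One library, labelled Bap1 knockout, came from 9 pooled neonates that carried Bap1fl/fl, a Bap1 allele that Cre recombinase can delete, and Rosa26-CreERT2, a tamoxifen-activated Cre driven from the broadly active Rosa26 locus. The other, labelled Bap1 wild type, came from 11 pooled neonates with Rosa26-CreERT2 and no floxed Bap1 allele named. Their cells are called KO-labelled and WT-labelled here. Bap1 encodes a deubiquitinase that acts on histone H2A. Both pools were C57BL/6 mice at postnatal day 1, and both cultures were kept in the melanocyte medium M254 with the supplement HMGS. Both received 100 nM 4-OHT, the active form of tamoxifen, for 4 days and none for 3 more days. About 6000 viable cells of each were loaded on the 10x Chromium 3′ v2 kit, which tags each captured RNA molecule with a unique molecular identifier (UMI). Each genotype is therefore 1 pooled culture and 1 library. No p-value can be had between the genotypes, and every interval given here is a 95% interval that covers counting error only, not the spread between animals or cultures.

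Contractile cells pull on their surroundings by sliding myosin along actin filaments. In smooth muscle the filaments hold the smooth muscle actins Acta2 and Actg2, and Acta2 also marks the myofibroblasts of wounds. Myosin is switched on by phosphorylation of its regulatory light chain Myl9, the tropomyosins Tpm1 and Tpm2 lie along actin, and caldesmon (Cald1), calponin (Cnn1) and transgelin (Tagln) bind to it. Fhl1 is a LIM-domain protein of muscle, and Ankrd1 is an ankyrin-repeat protein that responds to stretch and is a known target of the coactivators YAP and TAZ. Many genes of smooth muscle carry CArG boxes, to which serum response factor (SRF) binds with coactivators of the myocardin family. Tpm1 and Cald1 also make isoforms that non-muscle cells use. Epithelial cells in culture can also make smooth muscle actin.

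The 250 bases before and 50 after the start of each promoter entry were searched in RefSeq's promoter table (GRCm38.p6). It held 10 windows for 8 of the 10 genes. The start of an entry need not be the start of the gene position given below. The Fhl1 window printed, for example, lies within the gene position chrX:56731209-56793346. No entry was found for Actg2 and Tagln. The motifs were the CArG box, the same box with 1 C or G allowed among its central bases (CArG-like), and GGAATG, the site that TEAD factors, the partners of YAP and TAZ, recognise. A CArG box has the same form on both strands, and GGAATG was searched on both strands. The windows of 4 genes are printed because they hold a CArG or CArG-like box or, for Ankrd1, a pair of TEAD sites. They run 5′ to 3′ on the gene's own strand, with every match in capitals. They are Acta2 (chr19:34255324-34255623, minus strand), Myl9 (chr2:156775214-156775513, plus strand), Fhl1 (chrX:56779433-56779732, plus strand) and Ankrd1 (chr19:36119795-36120094, minus strand).
Acta2: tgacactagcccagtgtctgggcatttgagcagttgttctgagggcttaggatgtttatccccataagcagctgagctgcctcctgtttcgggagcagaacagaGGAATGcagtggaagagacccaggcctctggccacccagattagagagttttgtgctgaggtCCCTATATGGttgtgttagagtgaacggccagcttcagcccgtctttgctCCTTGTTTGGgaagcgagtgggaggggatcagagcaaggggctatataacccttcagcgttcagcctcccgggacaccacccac
Myl9: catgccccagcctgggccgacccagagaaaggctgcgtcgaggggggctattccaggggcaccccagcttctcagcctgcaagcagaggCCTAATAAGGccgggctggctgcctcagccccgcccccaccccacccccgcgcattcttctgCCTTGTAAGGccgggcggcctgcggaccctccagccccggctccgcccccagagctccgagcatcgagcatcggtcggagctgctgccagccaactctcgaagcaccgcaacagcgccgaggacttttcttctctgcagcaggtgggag
Fhl1: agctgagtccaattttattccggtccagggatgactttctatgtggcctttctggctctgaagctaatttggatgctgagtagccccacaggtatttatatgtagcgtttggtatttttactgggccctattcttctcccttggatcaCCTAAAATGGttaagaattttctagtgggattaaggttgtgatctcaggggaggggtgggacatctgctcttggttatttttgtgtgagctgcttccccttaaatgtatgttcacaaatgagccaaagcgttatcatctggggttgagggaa
Ankrd1: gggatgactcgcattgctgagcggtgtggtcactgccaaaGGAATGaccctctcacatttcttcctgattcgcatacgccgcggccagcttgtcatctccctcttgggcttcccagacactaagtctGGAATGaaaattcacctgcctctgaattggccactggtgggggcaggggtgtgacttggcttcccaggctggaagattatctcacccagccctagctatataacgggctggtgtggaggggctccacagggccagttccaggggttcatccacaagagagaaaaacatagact
In Acta2 the capitals mark GGAATG at −146 to −141 from the start, then the CArG-like boxes CCCTATATGG at −84 to −75 and CCTTGTTTGG at −34 to −25. In Myl9 they mark the CArG box CCTAATAAGG at −161 to −152 and the CArG-like box CCTTGTAAGG at −99 to −90, and in Fhl1 the CArG box CCTAAAATGG at −102 to −93. In Ankrd1 they mark GGAATG at −210 to −205 and at −123 to −118. The CArG box was found in 2 of the 10 windows and in 1.63% of all 32851 windows of the table, and either form in 3 of the 10 and in 9.98% of all. GGAATG was found in 4 of the 10 windows (Acta2, Ankrd1, Cald1 and Tpm1) and in 14.7% of all. These are matches of letters in a short window, and no 2 matches overlap in the 4 windows printed.

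As deposited, 1760 KO-labelled cells held 64954113 UMIs, with a median of 33585 per cell, and 1926 WT-labelled cells held 77579465 UMIs, with a median of 37223. Filters left 1738 KO-labelled and 1912 WT-labelled cells. They fell into 10 clusters, of which 6 were led by keratinocyte markers or by no marker set and were joined as keratin-rich. These were 1597 KO-labelled cells (91.9%, 90.5 to 93.1%) and 1754 WT-labelled cells (91.7%, 90.4 to 92.9%). Levels are given as CPM, a gene's UMIs per 1000000 UMIs of the cells summed. Krt14, the keratin of basal keratinocytes, stood at 4598 CPM in KO-labelled and 5736 CPM in WT-labelled cells of the keratin-rich clusters. Bap1 RNA went against the labels, at 19.8 CPM (1279 UMIs) over all KO-labelled and 14.1 CPM (1088 UMIs) over all WT-labelled cells. A 3′ tag outside the deleted exons checks nothing, and which exons were deleted was not stated. The libraries shared 3 cell barcodes, and leaving out the 6 cells that carry them moved no member across the 1.5-fold limit.

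The libraries filled different keratin-rich clusters, which bears on every sum over these cells. Cluster 4, led by Obp2a, Odam, Nupr1 and Gdf15, held 692 (43.3%) of the KO-labelled and 28 (1.60%) of the WT-labelled keratin-rich cells. Cluster 6, led by Dio3, Fgf21 and Epgn, held 298 (18.7%) of the KO-labelled and 5 (0.285%) of the WT-labelled cells. Cluster 0, led by Prl8a9, Ccl20 and Cxcl5, held 81 (5.07%) of the KO-labelled and 889 (50.7%) of the WT-labelled cells. Cluster 2 (Nts, Igfbp2, Prn, Nppb) held 305 KO-labelled and 396 WT-labelled cells, and cluster 1 (Spink12, Sprr1a, Psca, with suprabasal markers) held 202 KO-labelled and 297 WT-labelled cells. Cluster 3 (Ube2c, Cenpa, Aurka, genes of cell division) held 19 KO-labelled and 139 WT-labelled cells. With 1 library per genotype, a cluster filled mostly by 1 library cannot be told apart from that library. Comparisons within clusters thus rest mainly on clusters 1 and 2. Cluster 0, with 81 KO-labelled cells, is also compared below, but it too was filled mostly by 1 library.

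RNA of the contractile genes was highest in keratin-rich clusters 6, 2 and 3. Summed over the 10 genes, it took 21335 CPM in KO-labelled and 24187 CPM in WT-labelled cells of cluster 6, where only 5 cells were WT-labelled. It took 17109 CPM in KO-labelled and 18956 CPM in WT-labelled cells of cluster 2, and 17830 CPM in KO-labelled and 12958 CPM in WT-labelled cells of cluster 3. The lowest keratin-rich level was that of cluster 1, at 4510 CPM in KO-labelled and 4023 CPM in WT-labelled cells. Clusters were found from all genes, these 10 included, so the differences between clusters describe them and are no test. When clusters were found again without the 10 genes, a cluster of 182 KO-labelled and 321 WT-labelled cells still held 22474 CPM in KO-labelled and 18999 CPM in WT-labelled cells of them. It took in 391 of the 701 cells of cluster 2 and 66 of the 303 cells of cluster 6.

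The directions within cluster 2 differed from those in this cluster found without the 10 genes, called the matching cluster below. It is another set of cells: beside 391 cells of cluster 2 it held 66 of cluster 6 and 46 of cluster 0. Cluster 6 had only 5 WT-labelled cells, and the part of this change of cells in the directions was not tested. In the matching cluster, 4 of the 10 genes were at least 1.5-fold higher in KO-labelled cells and 0 lower. Of all genes, 4.61% were higher there and 18.7% lower. The 4 were Acta2, Actg2, Myl9 and Ankrd1. Tagln (3111 CPM KO-labelled against 2624 CPM WT-labelled), Cnn1 (281 CPM KO-labelled against 199 CPM WT-labelled), Tpm2 (2563 CPM KO-labelled against 2309 CPM WT-labelled) and Fhl1 (388 CPM KO-labelled against 341 CPM WT-labelled) were higher there, opposite to cluster 2. Over the 6 keratin-rich clusters found this way, Acta2 and Myl9 were at least 1.5-fold higher in KO-labelled cells in 6 of 6 and Ankrd1 in 5, with Ankrd1 lower in the other one (138 CPM KO-labelled against 235 CPM WT-labelled, in 47 WT-labelled cells). This clustering was added after the data were seen, and the values within clusters that follow are from the clusters that used every gene.

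**Figure D1:**
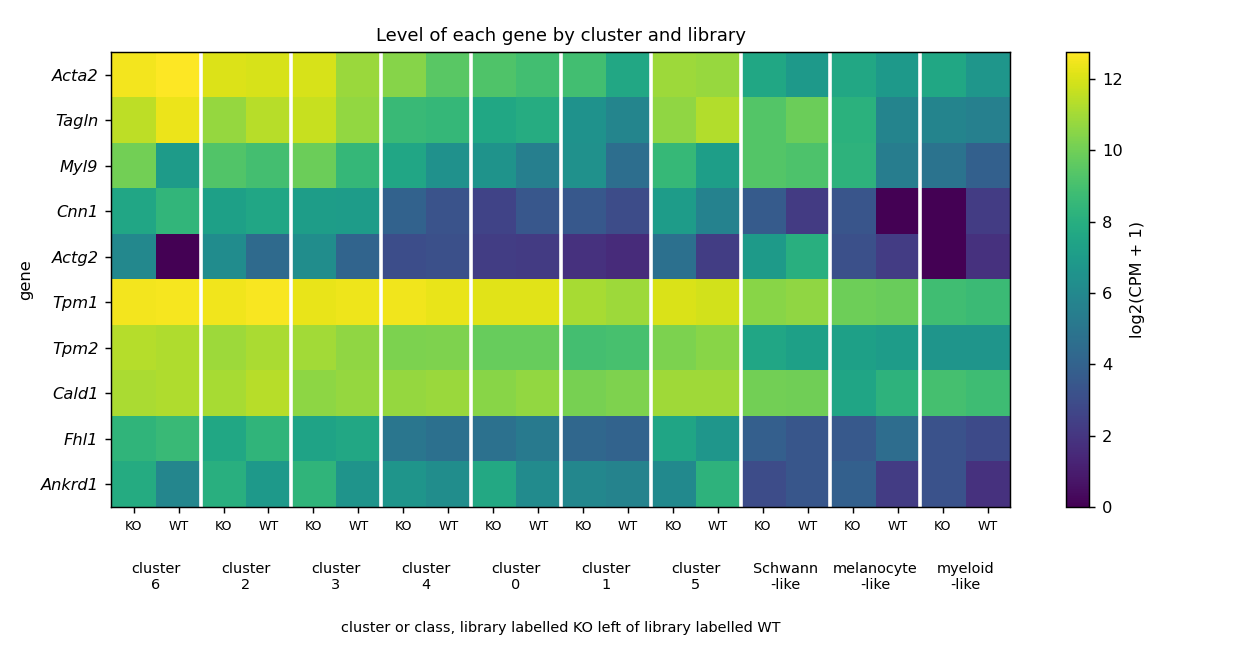
Level of each of the 10 genes as log2(CPM + 1) (colour) by cluster or class, with the library labelled KO left of the library labelled WT in each pair. Acta2 is bright in clusters 6, 2 and 3 and dark in the classes on the right, Tpm1 and Cald1 are bright in every keratin-rich cluster, and Actg2 is brightest in Schwann-like cells.

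Of 13 markers of smooth muscle and pericytes, 9 had fewer than 100 UMIs in each library of the keratin-rich cells, and 4 had more. Against 168669 UMIs in KO-labelled and 100275 UMIs in WT-labelled cells for Acta2, Myh11, the smooth muscle myosin heavy chain, had 70 UMIs KO-labelled against 36 UMIs WT-labelled. Des, the muscle intermediate filament desmin, had 22 UMIs KO-labelled against 36 UMIs WT-labelled, and the pericyte receptor Pdgfrb had 3 UMIs KO-labelled against 10 UMIs WT-labelled. Kcnj8, a pericyte potassium channel, had 0 in both libraries, and Myocd, the smooth muscle coactivator myocardin, had 1 UMI in KO-labelled and 0 in WT-labelled cells. The whole list summed to 273 CPM in KO-labelled keratin-rich cells (12 of 13 with a UMI) and 241 CPM in WT-labelled ones (10 of 13). Most of that was the adhesion molecule Mcam, at 201 CPM KO-labelled against 185 CPM WT-labelled, and the actin-binding Smtn, at 41.4 CPM KO-labelled against 37.6 CPM WT-labelled. Notch3 had 21.1 CPM KO-labelled against 12.4 CPM WT-labelled, and Lmod1 6.31 CPM KO-labelled against 3.34 CPM WT-labelled. In cluster 2 it summed to 354 CPM in KO-labelled and 426 CPM in WT-labelled cells. Keratinocyte markers were present in the same cells: the 7 basal markers summed to 4667 CPM in KO-labelled and 6037 CPM in WT-labelled cells of cluster 2, and to 17337 CPM in KO-labelled and 16595 CPM in WT-labelled cells of cluster 1. The fibroblast collagen Col1a1 had 43 UMIs KO-labelled against 44 UMIs WT-labelled over all keratin-rich cells.

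Summed over keratin-rich cells, 4 of the 10 genes were at least 1.5-fold higher in the library labelled knockout and 0 were at least 1.5-fold lower, where 7.74% of 16754 genes were higher and 17.4% were lower by that rule. The same 4 were also at least 2-fold higher, where 3.14% of all genes were higher and 9.13% lower. They were the smooth muscle actins Acta2 and Actg2, the myosin light chain Myl9 and Ankrd1. The median log2 ratio of the 10 was 0.35, against −0.02 for all genes. The count rests on the mix of clusters: without cluster 0, 2 were higher (Actg2 and Ankrd1) and Fhl1 was lower, without cluster 2, 8 were higher, and without cluster 4, 7 were. Without cluster 6, 4 were higher and Fhl1 was lower. Equal weight for each cluster, which counts the 5 WT-labelled cells of cluster 6 as a whole cluster, gave 3 higher. The list was chosen on these libraries, so the count supports nothing about it.

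Acta2, the alpha smooth muscle actin (gene ID 11475, chr19:34240336-34255585 in GRCm38.p6, the build of all gene positions here), stood at 2709 CPM (2696 to 2722) in KO-labelled and 1349 CPM (1341 to 1358) in WT-labelled keratin-rich cells, a log2 ratio of 1.01 (0.99 to 1.02). The median cell held 634 CPM KO-labelled against 176 CPM WT-labelled, and the 90th percentile was 7291 CPM KO-labelled against 3908 CPM WT-labelled. The ranges over cells overlap widely, with maxima of 29317 CPM KO-labelled against 22197 CPM WT-labelled. Within cluster 2 the difference was small, at 4288 CPM in KO-labelled and 3984 CPM in WT-labelled cells (log2 0.11, 0.09 to 0.12). In the matching cluster found without the 10 genes it was larger, at 6442 CPM in KO-labelled and 4169 CPM in WT-labelled cells (log2 0.63, 0.61 to 0.64). Within cluster 6 it ran the other way, at 5838 CPM in KO-labelled cells and 6917 CPM in the 5 WT-labelled cells, and the ratio was 0.01 (−0.11 to 0.13) without the top cell of each library. Acta2 was higher in KO-labelled cells of the other 4 clusters. Cluster 3 had 4110 CPM in 19 KO-labelled cells and 1820 CPM in 139 WT-labelled cells. Cluster 1 had 473 CPM KO-labelled against 201 CPM WT-labelled (log2 1.23, 1.16 to 1.31), and cluster 0 had 610 CPM KO-labelled against 476 CPM WT-labelled (log2 0.36, 0.29 to 0.42). In cluster 4 it stood at 1384 CPM in 692 KO-labelled cells and 711 CPM in 28 WT-labelled cells.

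Where the Acta2 RNA came from differed between the libraries. KO-labelled keratin-rich cells drew 35.5% of their Acta2 UMIs from cluster 2 and 37.8% from cluster 6, and WT-labelled ones 63.8% from cluster 2 and 0.971% from cluster 6. Together these clusters held 37.8% (35.4 to 40.2%) of the KO-labelled and 22.9% (20.9 to 24.9%) of the WT-labelled keratin-rich cells. How much of the summed difference came from more cells in these states and how much from more RNA per cell was not tested. With equal weight for each cluster the log2 ratio of Acta2 was 0.24. That setting counts the 5 WT-labelled cells of cluster 6 as much as any other cluster, so its value rests largely on those cells.

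**Figure D2:**
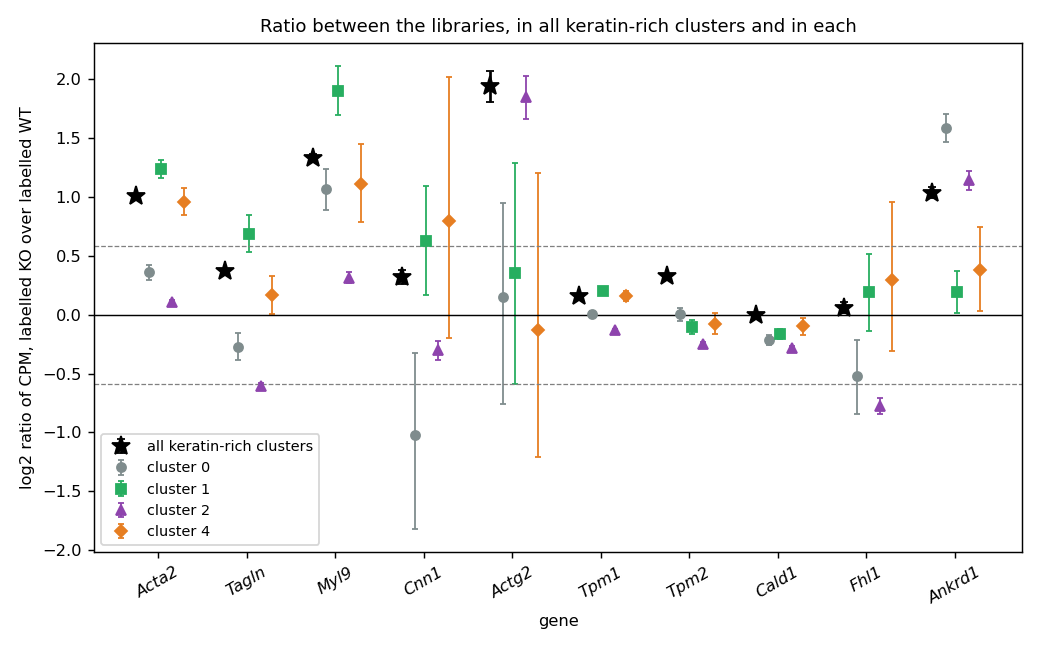
Log2 ratio of CPM, library labelled KO over library labelled WT, for each gene (x axis) in all keratin-rich clusters (stars) and in clusters 0, 1, 2 and 4; bars are 95% intervals for counting error and dashed lines mark 1.5-fold. In clusters 0, 1, 2 and 4 (3 and 6 are not drawn), Myl9 and Ankrd1 lie above 0, Cald1 below 0, and Tagln and Cnn1 on both sides.

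Myl9 (gene ID 98932, chr2:156775408-156781657) was higher in KO-labelled cells of 6 of 6 keratin-rich clusters and at least 1.5-fold higher in 5. It stood at 434 CPM (429 to 439) in KO-labelled and 172.5 CPM (169.6 to 175.5) in WT-labelled keratin-rich cells, a log2 ratio of 1.33 (1.30 to 1.36). In cluster 1 it had 86.3 CPM KO-labelled against 23.1 CPM WT-labelled (log2 1.90, 1.69 to 2.11), and in cluster 0 91.6 CPM KO-labelled against 43.8 CPM WT-labelled (log2 1.06, 0.89 to 1.24). In cluster 2 it had 619 CPM KO-labelled against 497 CPM WT-labelled (log2 0.31, 0.27 to 0.36). Among these 3 clusters its ratio was thus largest where its level was lowest. In the cluster found without the 10 genes that holds most of cluster 2, it was 1.08 (1.03 to 1.12). With each cell thinned to 8000 UMIs, a Myl9 UMI was found in 57.6% of KO-labelled and 33.4% of WT-labelled keratin-rich cells. In myeloid-like cells, a class that should lack it, the shares were 25% KO-labelled and 11.1% WT-labelled. Without thinning, the keratin-rich shares were 83.1% KO-labelled and 61.7% WT-labelled, at medians of 35703 UMIs per KO-labelled and 39656.5 UMIs per WT-labelled cell. The unthinned myeloid-like shares were 45% KO-labelled and 25% WT-labelled, at medians of 16120 UMIs per KO-labelled and 19443.5 UMIs per WT-labelled cell.

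Actg2, the gamma smooth muscle actin of gut and bladder (gene ID 11468, chr6:83512909-83536251), was scarce and held by few cells. It had 1999 UMIs (32.1 CPM, 30.7 to 33.5) in KO-labelled and 623 UMIs (8.38 CPM, 7.74 to 9.07) in WT-labelled keratin-rich cells, a log2 ratio of 1.94 (1.81 to 2.07). The 160 KO-labelled cells with the most Actg2 held 90.5% of these UMIs, and the 175 such WT-labelled cells held 85.7%. In cluster 2 it had 73.6 CPM KO-labelled against 20.5 CPM WT-labelled (log2 1.84, 1.66 to 2.03), with 31.7% of the KO-labelled and 35% of the WT-labelled UMIs in 1 cell each. Without those cells the ratio was 1.92. In cluster 3 the ratio of 2.23 rested on 1 KO-labelled cell that held 83.1% of the UMIs there, and without the top cell of each library it was −0.01. In clusters 0, 1 and 4 Actg2 was at most 7.66 CPM in either library, and the interval of each ratio includes 0. In cluster 6 it had 675 UMIs in KO-labelled and 0 in the 5 WT-labelled cells. Acta2 and Actg2 are close paralogues of each other and of Acta1 and Actc1, and how the authors counted reads that match more than 1 of them was not stated.

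Ankrd1, the stretch-response gene (gene ID 107765, chr19:36111965-36119844), had 164 CPM (161 to 167) in KO-labelled and 80.3 CPM (78.2 to 82.3) in WT-labelled keratin-rich cells, a log2 ratio of 1.03 (0.99 to 1.08). KO-labelled cells were higher in 6 of 6 clusters and at least 1.5-fold higher in 4. Cluster 2 had 263 CPM KO-labelled against 119 CPM WT-labelled (log2 1.14, 1.06 to 1.22), and cluster 1 had 59.5 CPM KO-labelled against 52.0 CPM WT-labelled (log2 0.19, 0.02 to 0.37, and 0.10, −0.12 to 0.32, without the top cell of each library). In cluster 0 it had 208 CPM KO-labelled against 69.4 CPM WT-labelled (log2 1.58, 1.46 to 1.70), with 37.1% of the KO-labelled UMIs in 1 cell, and the ratio was 1.01 without the top cell of each library. Its KO-labelled levels in clusters 0, 2 and 6 were 208, 263 and 233 CPM, and 133, 242 and 210 CPM without the top cell. Clusters 1, 3 and 4 had 38.0, 278 and 94.5 CPM in KO-labelled cells without the top cell. The median keratin-rich cell held 22.7 CPM KO-labelled against 0 CPM WT-labelled.

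The actin-binding proteins differed in direction between clusters. Tagln, transgelin (gene ID 21345, chr9:45929628-45936058), had 1141 CPM (1133 to 1150) in KO-labelled and 885 CPM (878 to 892) in WT-labelled keratin-rich cells, a log2 ratio of 0.37 (0.35 to 0.38). In cluster 2 it was lower in KO-labelled cells, at 1732 CPM KO-labelled against 2635 CPM WT-labelled (log2 −0.61, −0.63 to −0.58). In cluster 1 it was higher, at 89.2 CPM KO-labelled against 55.5 CPM WT-labelled (log2 0.69, 0.53 to 0.84). The annotation (GENCODE M21) places Pcsk7 and the antisense gene Gm48529 over Tagln on the opposite strand, and whether the authors' counting used strand was not stated. Cnn1, calponin (gene ID 12797, chr9:22099221-22109221), had 76.6 CPM (74.4 to 78.8) in KO-labelled and 61.4 CPM (59.6 to 63.2) in WT-labelled keratin-rich cells, a log2 ratio of 0.32 (0.26 to 0.38). In cluster 2 it had 153 CPM KO-labelled against 188 CPM WT-labelled (log2 −0.30, −0.38 to −0.22), and in cluster 0 4.88 CPM KO-labelled against 9.92 CPM WT-labelled, on 17 KO-labelled and 375 WT-labelled UMIs. In the matching cluster found without the 10 genes, both were higher in KO-labelled cells, Tagln with a log2 ratio of 0.25 (0.22 to 0.27) and Cnn1 with 0.50 (0.42 to 0.58). The direction within cluster 2 thus rests on the clustering.

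Cald1, caldesmon (gene ID 109624, chr6:34598495-34775469), was the closest of the 10 between the libraries. It had 1829 CPM (1818 to 1839) in KO-labelled and 1828 CPM (1819 to 1838) in WT-labelled keratin-rich cells. Within clusters it was lower in KO-labelled cells in 6 of 6, by log2 ratios between −0.29 and −0.10, none of which reached 1.5-fold and of which that of cluster 6, with 5 WT-labelled cells, had an interval that includes 0. With each library's top cell left out, the ratio was 0.17 (−0.02 to 0.38) in cluster 6 and −0.01 (−0.08 to 0.07) in cluster 4, and in clusters found without the 10 genes Cald1 was higher in KO-labelled cells in 2 of 6. Cluster 2 had 2190 CPM KO-labelled against 2668 CPM WT-labelled and cluster 0 had 1440 CPM KO-labelled against 1673 CPM WT-labelled. Gm13861, Npn2 and Gm14547 overlap Cald1 on the opposite strand.

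Of the tropomyosins, Tpm1 (gene ID 22003, chr9:67022590-67049672) took the largest part of the members' UMIs, 39.4% in KO-labelled and 44.9% in WT-labelled keratin-rich cells. It stood at 5203 CPM (5185 to 5221) in KO-labelled and 4651 CPM (4635 to 4666) in WT-labelled cells, a log2 ratio of 0.16, and lay between 1882 and 6265 CPM over the 6 keratin-rich clusters of both libraries. Tpm2 (gene ID 22004, chr4:43513726-43523583) stood at 1513 CPM (1504 to 1523) in KO-labelled and 1206 CPM (1198 to 1214) in WT-labelled cells, a log2 ratio of 0.33 (0.31 to 0.34). Neither gene was 1.5-fold apart between the libraries in any keratin-rich cluster. Cluster 2 had 1889 CPM KO-labelled against 2249 CPM WT-labelled of Tpm2 and cluster 1 had 492 CPM KO-labelled against 530 CPM WT-labelled. The 160 KO-labelled and 175 WT-labelled cells with the most held 18.3% KO-labelled and 20.3% WT-labelled of the Tpm1 UMIs, and 16.9% KO-labelled and 18.1% WT-labelled of the Cald1 UMIs. For Acta2 they held 48.5% KO-labelled and 62.4% WT-labelled, and for Tagln 61.9% KO-labelled and 65.8% WT-labelled. Tpm2 lay between, at 28.7% KO-labelled and 30.2% WT-labelled. Tropomyosin and caldesmon RNA was thus spread more evenly over cells than Acta2 and Tagln RNA, Tpm2 less so than Tpm1.

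Fhl1 (gene ID 14199, chrX:56731209-56793346) had 119.6 CPM (116.9 to 122.4) in KO-labelled and 114.8 CPM (112.4 to 117.2) in WT-labelled keratin-rich cells, a log2 ratio of 0.06 (0.01 to 0.10). In cluster 2 it was more than 1.5-fold lower in KO-labelled cells, at 193 CPM KO-labelled against 330 CPM WT-labelled (log2 −0.78, −0.84 to −0.71). In the matching cluster found without the 10 genes it was not lower, at 388 CPM KO-labelled against 341 CPM WT-labelled (log2 0.19, 0.12 to 0.25). In cluster 0 it had 26.1 CPM KO-labelled against 37.5 CPM WT-labelled, and in cluster 6 327 CPM in KO-labelled cells. The snRNA gene Gm23258 lies within Fhl1 on the same strand.

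**Figure D3:**
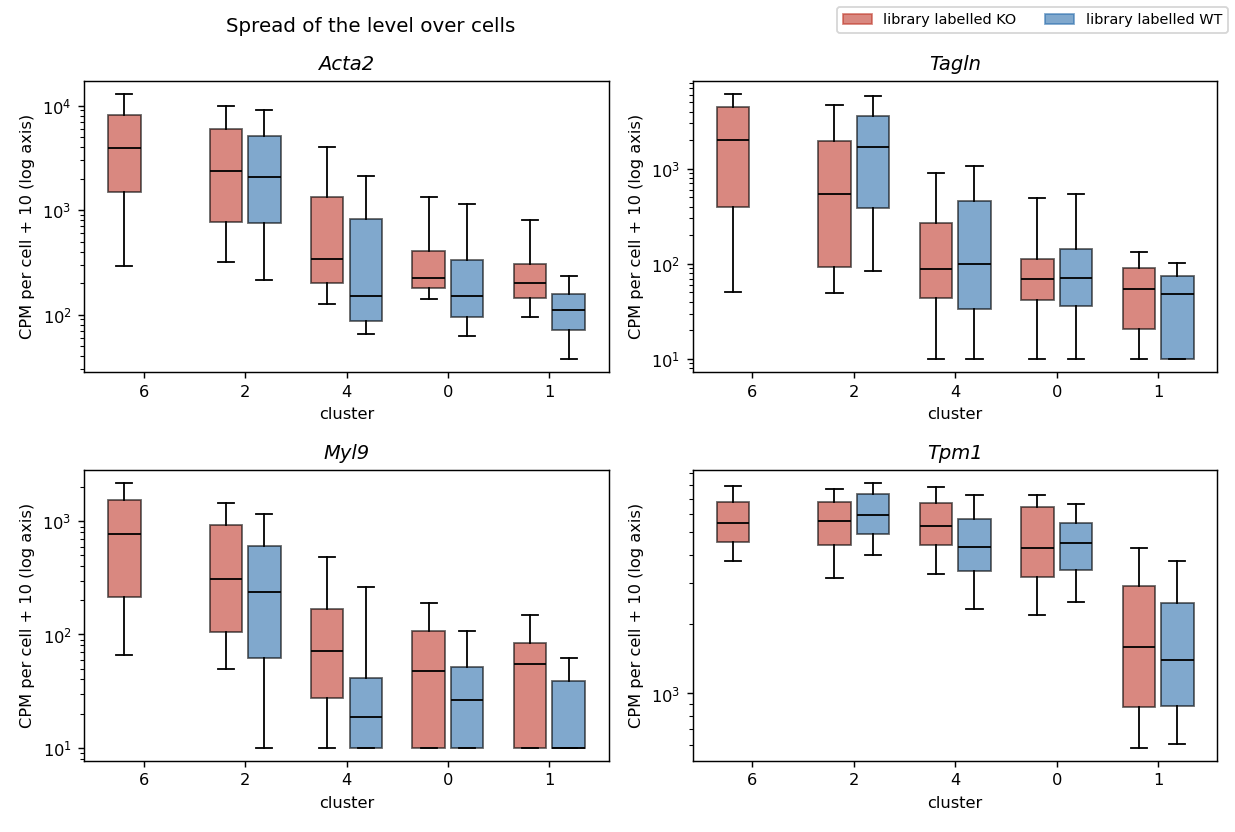
Level per cell, as CPM + 10 on a log axis, of Acta2, Tagln, Myl9 and Tpm1 in keratin-rich clusters 6, 2, 4, 0 and 1 (library labelled KO left, library labelled WT right; the 5 cells of cluster 6 labelled WT are not drawn). Boxes span the 25th to 75th percentile with the median as a line, and whiskers the 10th to 90th; Acta2, Tagln and Myl9 medians are highest in cluster 6 or 2, and Tpm1 is lowest in cluster 1.

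Within single clusters the members gave these counts at 1.5-fold. In cluster 2, 2 were higher (Actg2, Ankrd1) and 2 lower (Tagln, Fhl1) in KO-labelled cells, with 6.21% of genes higher and 19.2% lower. In cluster 1, 4 were higher (Acta2, Tagln, Myl9, Cnn1) and 0 lower, with 7.22% of genes higher and 13.5% lower. In cluster 0, 2 were higher (Myl9, Ankrd1) and 1 lower (Cnn1), with 8.67% higher and 14.4% lower. No member passed 1.5-fold in all 6 of these keratin-rich clusters. The clusters with few cells of 1 library gave 3 higher and 0 lower in cluster 4 (7.23% and 26.5% of genes), 5 higher and 0 lower in cluster 3 (7.47% and 18%), and 3 higher and 2 lower in cluster 6 (7.61% and 48.4%). Some of these calls rest on 1 cell: without the top cell of each library, Cnn1 was no longer called in cluster 1 (log2 0.14, −0.39 to 0.65) and Actg2 no longer in cluster 3. In cluster 6 Cnn1 turned to 2.59, on 3 WT-labelled UMIs. Fhl1 passed the limit downward in cluster 0 (−0.65) and upward in cluster 4 (0.83), where Ankrd1 also passed it (1.19). Keratinocyte genes differed as well within cluster 2. Krt5 had 388 CPM KO-labelled against 1365 CPM WT-labelled, Trp63, the transcription factor of the basal layer, 10.3 CPM KO-labelled against 52.8 CPM WT-labelled, and Krt18, a keratin of simple epithelia, 14492 CPM KO-labelled against 5239 CPM WT-labelled. Their part in the ratios of the contractile genes was not tested.

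Over single keratin-rich cells most of the 10 genes varied together. Pearson's r between log-scaled levels had a median of 0.36 over the 45 pairs in 1597 KO-labelled cells, between 0.05 and 0.75, and of 0.39 in 1754 WT-labelled cells, between 0.06 and 0.74. Tagln and Myl9 gave 0.75 in KO-labelled cells, and Acta2 and Tagln gave 0.74 in both. With the mean of the other 9 genes, r for Tagln was 0.79 KO-labelled and 0.79 WT-labelled, for Acta2 0.77 KO-labelled and 0.75 WT-labelled, and for Myl9 0.76 KO-labelled and 0.70 WT-labelled. Ankrd1 followed the others least, at 0.23 KO-labelled and 0.18 WT-labelled, and Actg2 had 0.36 KO-labelled and 0.29 WT-labelled. The cells of a library share that library, and the members' mean correlated with the log of a cell's UMI total at 0.21 KO-labelled and 0.17 WT-labelled.

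**Figure D4:**
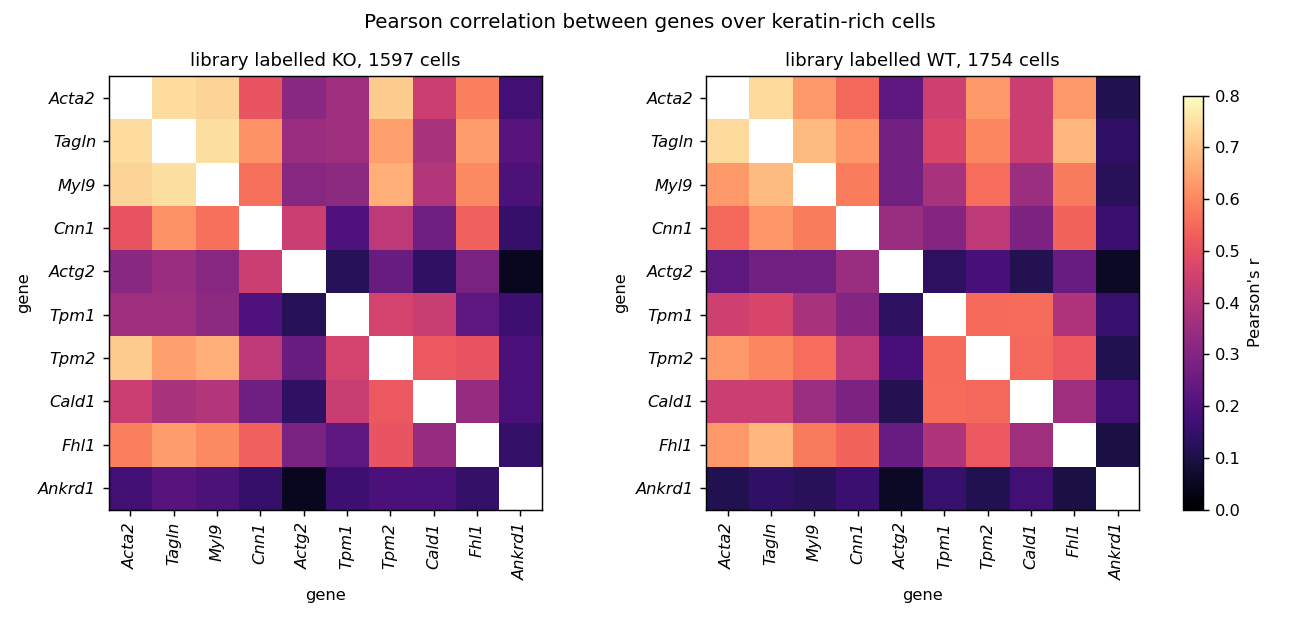
Pearson's r (colour) between each pair of the 10 genes over keratin-rich cells of the library labelled KO (left, 1597 cells) and the library labelled WT (right, 1754 cells), on log-scaled levels; the diagonal is left blank. Acta2, Tagln, Myl9, Tpm2 and Fhl1 form the bright block, and the row of Ankrd1 is dark in both libraries.

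Among 6383 other genes with at least 1000 UMIs in each library, ranked by the lower of both libraries' r with the members' mean, the first 10 were Abracl, Cnn2, Chst12, Cavin3, Nexn, Tpm4, Csrp1, Tagln2, Hacd1 and Flna. Abracl had r of 0.75 KO-labelled and 0.75 WT-labelled, Cnn2, a calponin found outside muscle, 0.72 KO-labelled and 0.67 WT-labelled, and Cavin3, a coat protein of caveolae, 0.73 KO-labelled and 0.66 WT-labelled. Nexn, an actin-binding protein of the muscle Z-disc, had 0.66 KO-labelled and 0.69 WT-labelled, and Flna, the actin crosslinker filamin A, 0.61 KO-labelled and 0.63 WT-labelled. None of these 10 was 1.5-fold apart between the libraries in keratin-rich cells. Hacd1 came nearest, at a log2 ratio of 0.57.

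Outside the keratin-rich cells the genes were read against Krt14, whose RNA in other classes gives a gauge of free RNA in the droplets. Krt5 gave a higher gauge, at 12.7% KO-labelled and 10.8% WT-labelled of its keratin-rich level in myeloid-like cells. It had 12.7% KO-labelled and 12.1% WT-labelled in Schwann-like cells, and 11.1% KO-labelled and 12.3% WT-labelled in melanocyte-like cells. In the 20 KO-labelled and 36 WT-labelled myeloid-like cells, Krt14 stood at 6.59% KO-labelled and 6.37% WT-labelled of its keratin-rich level. Acta2 stood at 7.04% KO-labelled and 7.77% WT-labelled there, Tagln at 4.67% KO-labelled and 5.20% WT-labelled, and Tpm1 at 8.95% KO-labelled and 8.91% WT-labelled. Those levels read as background or little above it by Krt14, and all lay below the percentages of Krt5. Cald1 stood well above, at 27.9% KO-labelled against 24.3% WT-labelled (510 CPM KO-labelled, 445 CPM WT-labelled). Of the 6 genes with at least 20 UMIs, 2 were higher by 1.5-fold and 0 lower in KO-labelled myeloid-like cells, beside 14.4% of all genes higher and 14.9% lower. The 2 were Acta2 and Myl9, and Myl9 stood at 6.46% KO-labelled and 8.15% WT-labelled of its keratin-rich level. Both calls were thus on levels that read as background.

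Schwann-like cells, 36 KO-labelled and 59 WT-labelled with the glial markers Fabp7 and Ngfr, differed from keratin-rich cells in which of the genes were high. Actg2 stood at 121 CPM (90.9 to 158.7) in KO-labelled and 267 CPM (233 to 305) in WT-labelled cells, on 53 KO-labelled and 218 WT-labelled UMIs. Those levels were 378% KO-labelled against 3183% WT-labelled of the keratin-rich ones. The gamma actin was thus higher in these glia-like cells than in any other class. UMIs of Actg2 were found in 50% of KO-labelled and 59.3% of WT-labelled Schwann-like cells, at medians of 11069.5 UMIs per KO-labelled and 12363 UMIs per WT-labelled cell. With each cell thinned to 8000 UMIs the shares were 47.2% (30.4 to 64.5%) KO-labelled and 40.7% (28.1 to 54.3%) WT-labelled. At equal depth the KO-labelled share was thus not the lower one, but the intervals overlap widely and do not exclude a lower share. Unthinned, UMIs were found in 0% of KO-labelled and 5.56% of WT-labelled myeloid-like cells, where 0 of 20 cells allows up to 15% of cells with a UMI at a floor of 3 counts. The log2 ratio in Schwann-like cells was −1.14 (−1.60 to −0.70), opposite in sign to that of the keratin-rich cells. Myl9 had 652.5 CPM KO-labelled against 584 CPM WT-labelled, above its keratin-rich levels, and Tagln 659 CPM KO-labelled against 938 CPM WT-labelled (log2 −0.51, −0.71 to −0.31, and −0.84 without the top cells). Acta2 had 192 CPM KO-labelled against 120.0 CPM WT-labelled, which is 7.10% KO-labelled against 8.89% WT-labelled of its keratin-rich levels, near the 7.12% KO-labelled against 7.04% WT-labelled of Krt14, so it reads as background there. Of the 7 genes tested, 1 was higher (Acta2, at a level that reads as background) and 1 lower (Actg2) at 1.5-fold, beside 11.1% of all genes higher and 11.7% lower.

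Melanocyte-like cells, 56 KO-labelled and 22 WT-labelled, held Acta2 at 7.33% KO-labelled against 8.78% WT-labelled of the keratin-rich level, beside 6.29% KO-labelled against 8.46% WT-labelled for Krt14. Myl9 stood at 305 CPM (264 to 350) in KO-labelled and 42.0 CPM (21.0 to 75.2) in WT-labelled cells, on 198 KO-labelled and 11 WT-labelled UMIs. Its log2 ratio was 2.86 (1.99 to 3.88), and 3.27 without the top cell of each library. Myl9 RNA was thus higher in KO-labelled melanocyte-like cells beyond counting error, as it was in keratin-rich cells. Tagln had 285 CPM KO-labelled against 53.5 CPM WT-labelled (log2 2.41, 1.63 to 3.31), with 46.5% of the KO-labelled UMIs in 1 cell and a ratio of 1.54 without the top cells. A Myl9 UMI was found in 60.7% of KO-labelled and 22.7% of WT-labelled cells, and a Tagln UMI in 46.4% of KO-labelled and 63.6% of WT-labelled cells, at medians of 10126 UMIs per KO-labelled and 10993 UMIs per WT-labelled cell. Tagln is thus not higher by the share of cells. In WT-labelled cells it stood at 6.04% of its keratin-rich level, below Krt14, so that share and the ratio include UMIs at a background level. In KO-labelled cells it stood at 24.9%. Cald1 had 180.0 CPM KO-labelled against 302 CPM WT-labelled (log2 −0.74, −1.17 to −0.31), and a ratio of −0.47 (−0.99 to 0.06) without the top cells. Of the 6 genes tested, 3 were higher and 1 lower (Cald1) at 1.5-fold, beside 13.6% of all genes higher and 13.2% lower. The 3 were Myl9, Tagln and Acta2, the last at a level near the Krt14 gauge. Cald1 stood at 9.84% KO-labelled and 16.5% WT-labelled of its keratin-rich level, beside 11.1% KO-labelled and 12.3% WT-labelled for Krt5. Its call was thus also on levels near background.

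Cluster 5, with 29 KO-labelled and 41 WT-labelled cells, led with Crabp1, Mcpt8, Mmp3 and Twist2, and stays unnamed. Crabp1 and Twist2 were on the list of fibroblast markers, and Mcpt8 and Mmp3 were on no marker list. In cluster 5, 7 of 9 fibroblast and 7 of 7 skeletal muscle markers were at least 5-fold above the mean of the other clusters. Crabp1 had 6588 CPM and Twist2 716 CPM over both libraries, while Lum and Dcn had no UMI in KO-labelled cells. The fibroblast markers summed to 7713 CPM KO-labelled against 7150 CPM WT-labelled, and the skeletal muscle markers to 22.4 CPM KO-labelled against 829 CPM WT-labelled, with UMIs for 2 of the 7 in KO-labelled and 7 of the 7 in WT-labelled cells. Krt14 stood at 26.6% KO-labelled against 23.6% WT-labelled of its keratin-rich level. Cluster 5 was thus a mixed group, and the part of this mix in its ratios was not tested. Acta2 had 1921 CPM (1826 to 2019) in KO-labelled and 1791 CPM (1717 to 1867) in WT-labelled cells, and Tagln 1593 CPM KO-labelled against 2467 CPM WT-labelled (log2 −0.63, −0.73 to −0.54). Myl9 had 367 CPM KO-labelled against 142 CPM WT-labelled (log2 1.37, 1.09 to 1.64). Ankrd1 had 65.9 CPM (49.4 to 86.2) in KO-labelled and 299 CPM (270 to 332) in WT-labelled cells (log2 −2.18, −2.63 to −1.77), and a ratio of −2.12 without the top cell of each library. Ankrd1 was thus lower in level here, where in keratin-rich cells it was higher. The share of cells with an Ankrd1 UMI at 8000 UMIs per cell was close, at 31% (15.3 to 50.8%) KO-labelled and 31.7% (18.1 to 48.1%) WT-labelled. Of the 10 genes, 4 were higher (Actg2, Cnn1, Myl9 and Fhl1) and 2 lower (Tagln and Ankrd1) at 1.5-fold, beside 8.35% of all genes higher and 19.4% lower. The Actg2 call rests on few UMIs. Without the top cell of each library it had 3 KO-labelled and 3 WT-labelled UMIs there (log2 0.61, −2.29 to 3.51).

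**Figure D5:**
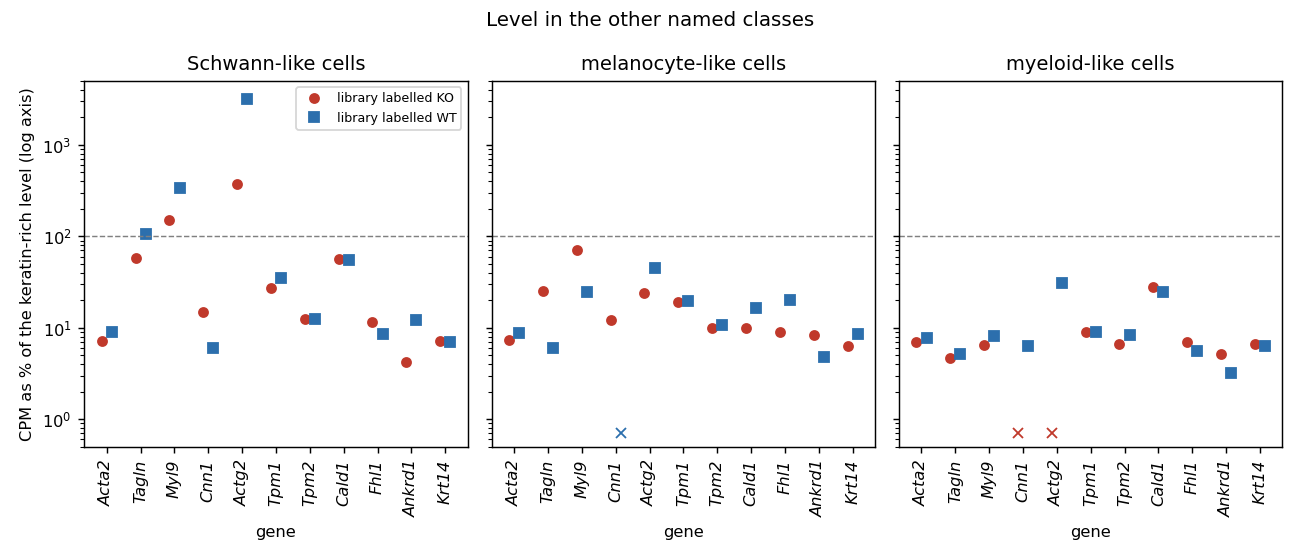
CPM in Schwann-like, melanocyte-like and myeloid-like cells as a percentage of the keratin-rich level of the same library (log axis), for the 10 genes and for Krt14; circles are the library labelled KO, squares the library labelled WT, and crosses mark 0 UMIs. Actg2 and Myl9 lie above 100% in Schwann-like cells of both libraries and Tagln in those of the library labelled WT only, while Acta2 lies near Krt14 in all 3 classes.

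Related genes were counted from 5 lists, in keratin-rich cells at 1.5-fold and against the same 7.74% of genes higher and 17.4% lower. Of 17 other smooth muscle genes, 15 were tested, 5 were higher and 2 lower in the library labelled knockout, with a median log2 ratio of 0.14. Acta1, the skeletal muscle actin, had 501 CPM KO-labelled against 188 CPM WT-labelled (log2 1.41, 1.38 to 1.44), and Csrp2, a LIM protein of smooth muscle, 54.8 CPM KO-labelled against 18.0 CPM WT-labelled (log2 1.61, 1.52 to 1.70). Acta1 was higher within cluster 2 as well, at 1400 CPM KO-labelled against 329 CPM WT-labelled, while Csrp2 had 20.4 CPM KO-labelled against 26.5 CPM WT-labelled there. The other 3 higher genes, named after their values were seen, were Myh11, Lmod1, the actin nucleator leiomodin, at 6.31 CPM KO-labelled against 3.34 CPM WT-labelled, and Fhl3, at 26.9 CPM KO-labelled against 15.7 CPM WT-labelled. The lower ones, also named after their values were seen, were Mylk, the myosin light chain kinase, with 17 UMIs KO-labelled against 40 UMIs WT-labelled, and Pdlim3, with 10 UMIs KO-labelled against 18 UMIs WT-labelled and an interval of the ratio that includes 0. Csrp1 had 705 CPM KO-labelled against 755 CPM WT-labelled.

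Among isoforms used outside muscle the count differed. Of 19 non-muscle isoforms, 0 were higher and 1 lower, with a median log2 ratio of 0.08. Myh14, a non-muscle myosin heavy chain, had 19.5 CPM KO-labelled against 29.5 CPM WT-labelled (log2 −0.60, −0.70 to −0.49). Myl6, the myosin essential light chain, had 2119 CPM KO-labelled against 1760 CPM WT-labelled, Actn1, the crosslinker alpha-actinin, 1985 CPM KO-labelled against 1645 CPM WT-labelled, and Cnn2 723 CPM KO-labelled against 763 CPM WT-labelled.

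RNA of the SRF and MRTF regulators tested lay within 1.5-fold. Of 14 SRF and MRTF regulators tested, 0 passed it in either direction, with a median log2 ratio of 0.20. Arhgef1, an exchange factor for RhoA, had 69.6 CPM KO-labelled against 52.4 CPM WT-labelled. Rhoc had 1362 CPM KO-labelled against 1067 CPM WT-labelled and Limk1, a kinase of cofilin, 2.36 CPM KO-labelled against 3.01 CPM WT-labelled. Of 15 genes of YAP and TEAD, 0 were higher and 2 lower, with a median log2 ratio of −0.20. These were F3, tissue factor, at 828 CPM KO-labelled against 1946 CPM WT-labelled (log2 −1.23, −1.25 to −1.22), and Tead4, at 2.07 CPM KO-labelled against 6.09 CPM WT-labelled (log2 −1.56, −1.85 to −1.27). Tead2 had 139 CPM KO-labelled against 114 CPM WT-labelled and Yap1 52.3 CPM KO-labelled against 49.0 CPM WT-labelled. Ankrd1, also a YAP target, was thus higher in the same cells where F3 was lower.

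Of 12 genes of the TGF-beta pathway, 3 were higher and 0 lower, with a median log2 ratio of 0.10. Tgfb3, a ligand, had 9.36 CPM KO-labelled against 4.92 CPM WT-labelled (log2 0.93, 0.74 to 1.12), and Ltbp1, which binds latent TGF-beta, 16.7 CPM KO-labelled against 10.8 CPM WT-labelled (log2 0.64, 0.50 to 0.77). Smad3, the signal transducer, named after its value was seen, had 51.4 CPM KO-labelled against 33.7 CPM WT-labelled (log2 0.61, 0.53 to 0.68). Within clusters 0, 1 and 2, Ltbp1 had 10.3, 8.04 and 12.5 CPM KO-labelled against 8.23, 3.99 and 17.3 CPM WT-labelled. Its direction thus differed between clusters. Smad3 had 40.2, 43.5 and 33.5 CPM KO-labelled against 38.2, 35.3 and 26.8 CPM WT-labelled there. Tgfb3 had 8.61, 3.70 and 6.88 CPM KO-labelled against 5.90, 3.47 and 4.11 CPM WT-labelled. Tgfb2 had 38.5 CPM KO-labelled against 52.8 CPM WT-labelled and Tgfbi 1.19 CPM KO-labelled against 1.76 CPM WT-labelled, on 74 KO-labelled and 131 WT-labelled UMIs.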

How the data were processed

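The data were single-cell RNA-seq of epidermal cultures. The authors deposited 1 table of UMI counts per library, genes by cells. The submitters' processing notes name Cell Ranger 2.1, Seurat 2.0 and the build mm10, with no role for each. Of 36528 NCBI gene IDs, 31049 matched a symbol in RefSeq's table. Cell calling and any doublet removal by the authors were not stated.

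Cells with at least 500 genes and at most 10% mitochondrial UMIs (37 genes) were kept, which removed 16 KO-labelled and 13 WT-labelled cells. Scrublet, at an expected rate of 0.02, marked 7 KO-labelled and 1 WT-labelled cells as doublets (1 of the 7 had also failed the filter), a weak check, so doublets between classes may remain. Counts were scaled to 10000 per cell and logged. From 2000 variable genes, 30 principal components and 15 neighbours, Leiden clustering at 0.5 gave the clusters, without integration. A class was named from 3 or more markers at 5-fold over the other clusters' mean.

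UMIs were summed per cluster and library as CPM. Intervals are exact Poisson for levels, conditional exact binomial for ratios and Clopper-Pearson for shares, at 95%, and cover counting error only. A call was a 1.5-fold ratio with at least 20 UMIs over both libraries, with no test. The ratio code was tested on simulated data.

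The text names the 10 members, up to 4 genes per list (the 2 highest and 2 lowest ratios with at least 100 UMIs), the 10 genes most like the members, and genes noted as chosen after seeing values. Of the list genes this rule names, 2 are not reported here. Members, lists and markers were chosen with earlier results of these data known. Alternatives were other cell filters, doublets kept, Leiden at 0.3 and 1, centring, equal weights per cell or cluster, thinning, a common UMI minimum, and leaving out the top cell, a cluster or shared barcodes. Versions were scanpy 1.11.5, igraph 0.11.9, scipy 1.17.1, anndata 0.12.19, matplotlib 3.10.9, numpy 2.4.6, scikit-learn 1.9.0, pandas 2.3.3 and Python 3.11.15.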

Additional observations from a re-analysis of the deposited data

Results flagged for a closer look

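The ratio of the library labelled knockout over the library labelled wild type had opposite signs in different cells for 4 genes, with counting intervals on opposite sides of 0. None of these differences was tested over replicates, since each genotype is 1 library. Actg2 had a log2 ratio of 1.94 in keratin-rich cells and −1.14 in Schwann-like cells. Ankrd1 had 1.03 in keratin-rich cells and −2.18 in cluster 5, the unnamed cluster led by Crabp1. Tagln had 0.69 in cluster 1 and −0.61 in cluster 2, but 0.25 in the matching cluster when clusters were found without the 10 genes, so this contrast rests on the clustering. Cnn1 had −1.02 in cluster 0, on 17 UMIs labelled knockout, and 0.63 in cluster 1, where 31.7% of the UMIs labelled knockout came from 1 cell, and 0.14 (−0.39 to 0.65) there without the top cell of each library.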

How the results depend on the processing

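The sums over keratin-rich cells depend on which clusters they hold. Actg2 and Ankrd1 stayed at least 1.5-fold higher in the library labelled knockout in 18 of 18 settings, Myl9 in 17 and Acta2 in 16, and with equal weight for each cluster Acta2 had a log2 ratio of 0.24. Leaving out clusters 0, 1, 2, 3 and 4 in turn, and leaving out cells with shared barcodes, were chosen after seeing the data, as was finding clusters without the members. Without cluster 0, 2 members were higher and 1 lower, and the median and the log2 ratio of the summed members were 0.087 and 0.087. Without cluster 2, 8 were higher, with 1.01 and 0.60, and without cluster 4, 7 were higher, with 0.90 and 0.52. Without cluster 6, the one with the highest member level, 1 member (Fhl1) was lower, with 0.10 and 0.15. Equal weight for each cluster gave 0.0073 and 0.036. These values, like the 0.24 of Acta2, count the 5 WT-labelled cells of cluster 6 as a whole cluster. Without cluster 3 they were 0.48 and 0.39, with doublets kept 0.48 and 0.38, and at Leiden resolution 0.3 0.49 and 0.39. The summed ratio, 0.35 as reported, was 0.33 without cluster 1, with equal weight for each cell and when each cell was thinned to 8000 UMIs. The cause of these moves was not tested. In the cluster found without the members that holds most of cluster 2, Tagln (−0.61 in cluster 2) was 0.25 and Fhl1 (−0.78) was 0.19. Cnn1, at 0.32 as reported, was −0.50 without cluster 0, and Tagln, at 0.37, was −0.38. At a minimum of 100 UMIs, 0 of the other smooth muscle genes were lower. Centring moved ratios by 0.00085. No paired analysis was possible because each genotype has 1 library and the numbers pair nothing. Depth limits Actg2 and Cnn1, with under 20 UMIs in some clusters, and classes of under 60 cells per library.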
